A study of Mus musculus with 12 samples.

Results

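The genes described here are 45 genes of DNA repair and of the DNA damage checkpoint, followed in cortex and hippocampus 3 months after irradiation of the brain of male C57BL/6 mice. They were taken from the files by gene symbol, from a list drawn up with earlier results of these data known, and all 45 are among the 23183 genes listed in each library. By pathway, 10 act in break sensing and the checkpoint, 5 in end joining, 6 in recombination and cross-link repair, 10 in base excision and single-strand break repair, 11 in nucleotide excision repair and 3 in mismatch repair. Con mice were sham-irradiated, and IR mice received a single dose of 10 Gy X-rays to the whole brain. The mice were bought at 7 weeks of age and acclimatised for 1 week, and all groups share strain, sex and interval. Cortex and hippocampus were each represented by 3 libraries of Con and 3 of IR, which makes 12. The sources do not say whether each library came from a separate mouse, or whether both tissues came from the same mice, so the p-values measure only the spread between these libraries.

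Ionizing radiation breaks both strands of DNA, breaks single strands and oxidises bases, and each lesion is handled by its own set of proteins. Double-strand breaks are marked by the kinases ATM and ATR and by phosphorylated histone H2AX, and are then closed by end joining, or by recombination with a sister chromatid in dividing cells. Damaged bases and single-strand breaks go to base excision repair, bulky lesions to nucleotide excision repair, and replication errors to mismatch repair. Neurons no longer divide, so end joining and the excision pathways carry most of their repair. Many of these proteins are controlled by modification rather than by the amount of their mRNA, and in human cells *Ddb2* and *Xpc* are known targets of p53.

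The values are FPKM, which count fragments relative to both the transcript's length and the library's size, so levels of different genes can be set side by side. The sum over genes was 359773 to 393447 FPKM in a library, and the depth in reads is unknown. *Cdkn1a*, the p53 target that encodes the cell cycle inhibitor p21, served as the check of the labels. In the cortex its libraries held 5.67, 6.32 and 6.03 FPKM in Con and 14.8, 12.7 and 16.8 FPKM in IR. In the hippocampus it was at 2.27, 2.09 and 2.00 FPKM in Con and at 6.25, 6.06 and 6.23 FPKM in IR, so that no IR library overlapped a Con library in either tissue. A list of 6 cortical neuron genes summed to 111 to 121 FPKM in the cortex and to 32.2 to 39.8 FPKM in the hippocampus, and 6 hippocampal neuron genes to 25.2 to 49.5 and to 125 to 159 FPKM, as the tissue labels have it. In the hippocampus 2 libraries stood apart by genes of the choroid plexus, the epithelium that makes cerebrospinal fluid. The 7 genes of that list summed to 1069 FPKM in Con 2 and to 1660 FPKM in IR 1, against 23.1 to 66.6 FPKM in the other 4 libraries. In the cortex IR 2 stood at 441 FPKM, against 4.77 to 31.5 FPKM in the other 5.

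Without irradiation the 45 genes spanned a wide range of levels. No member was at 0 in any library. In Con cortex 7 members were under 1 FPKM, 31 between 1 and 10 FPKM and 7 at 10 FPKM or above, with a median of 4.86 FPKM. In Con hippocampus these counts were 6, 31 and 8, with a median of 5.20 FPKM. *Ddb1*, which builds both the DNA lesion sensor and a ubiquitin ligase, had the highest level in both tissues, with a mean of 57.8 ± 1.02 FPKM in the cortex and 62.5 ± 2.21 FPKM in the hippocampus (SD, n = 3). *Brca1*, which acts in recombination, had the lowest, at 0.163 ± 0.0174 and 0.190 ± 0.0159 FPKM (SD, n = 3). The recombination and cross-link genes as a group were lowest, with a median of 0.764 FPKM in the cortex and 0.619 FPKM in the hippocampus, and 4 of the 6 were under 1 FPKM in each tissue. The median member varied between Con libraries by a coefficient of variation of 8.25% in the cortex and 8.23% in the hippocampus.

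**Figure D1:**
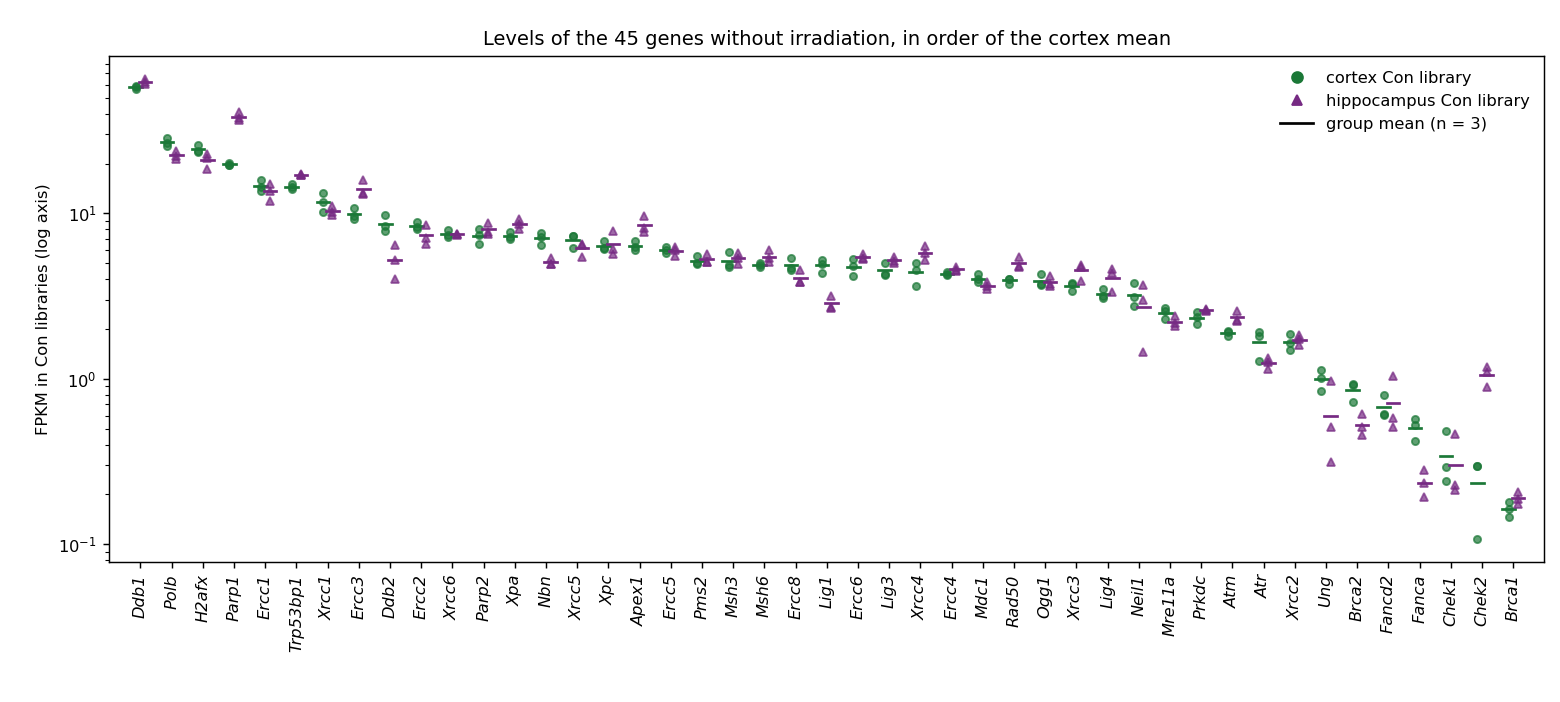
FPKM of the 45 members in the 3 Con libraries of each tissue, on a log axis and in the order of the cortex mean. Points are libraries (circles, cortex, and triangles, hippocampus) and short lines are means. *Ddb1* stands at the top in both tissues and *Brca1* at the bottom, and *Parp1* and *Chek2* lie higher in the hippocampus.

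The Con libraries of the tissues did not overlap for 23 of the 45 members, of which 16 were higher in the hippocampus and 7 lower. Of the 42 members that passed the filter on low values described with the comparisons, 22 did not overlap (52.4%), against 49.7% of the 14459 genes that passed it. Higher in the hippocampus were 16 of these (38.1%), against 26.6% of all, and lower were 6 (14.3%), against 23.1%. A gene could pass this filter through either tissue. *Chek2* passed only through the hippocampus and counts among the higher, while *Fanca*, lower in the hippocampus without overlap, did not pass. Both shift the counts of members toward the hippocampus. *Parp1*, the polymerase that marks strand breaks with poly(ADP-ribose), was at 1.93 times the cortex mean in the hippocampus. *Ercc3*, a helicase of the transcription factor TFIIH, was at 1.43 times. *Chek2*, the checkpoint kinase that ATM switches on, was at 4.50 times, though its cortex mean was only 0.235 FPKM. *Ddb2*, the damage-binding partner of *Ddb1*, was at 0.600 times the cortex mean in the hippocampus, and *Lig1*, the ligase of replication and long-patch base excision repair, at 0.588 times. These differences are given as a description with no test, and whether the tissues were prepared and normalized together is not given in the sources used here.

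Irradiation was compared within each tissue on log2(FPKM + 1) with limma, for genes that reached 0.5 FPKM in 3 or more of a tissue's 6 libraries. On this scale a log2 fold change understates the change of genes at low levels. In the cortex 41 members were tested, and *Chek1*, *Chek2*, *Brca1* and *Fanca* were too low. No member passed an adjusted p of 0.05, a threshold that 0.725% of all 14065 genes tested passed, and the smallest adjusted p of a member was 0.0997, for *Ogg1*. At an unadjusted p under 0.05, 7 members were lower in IR and 0 were higher. That is 17.1% of the members tested, against 14.1% of all genes tested in either direction, 5.94% lower and 8.16% higher. The 7 were *Ogg1*, *Apex1* and *Lig1* of base excision repair, *Xpa*, *Xpc* and *Ddb2* of nucleotide excision repair, and *Xrcc6* of end joining. The count was 2, *Ogg1* and *Xpa*, without Con 1 and also without IR 1. The share of all genes tested, in either direction, was 13.2% without Con 1 and 8.69% without IR 1. IR 1 was the lowest of the 6 cortex libraries for 14 of the 41 members (34.1%) and for 17.9% of all genes tested.

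In the cortex the mean was lower in IR for 29 members and higher for 12, and over all genes tested for 6963 and 7102. The median log2 fold change of the members was -0.04, against 0.00162 over all genes tested, and single members ran from -0.37 to 0.17. Leaving out single libraries moved that median between -0.0553 and -0.0246, the latter without IR 2. The 95% interval of the change in FPKM + 1 lay within 1.5-fold in both directions for 41 of the 41 members, against 95.3% of all genes tested. The added 1 shrinks the change of members near or under 1 FPKM, so this does not bound their change in FPKM. The Con and IR libraries did not overlap for 9 of the 41 members (22.0%), against 20.3% of all genes tested. IR was lower in 6 of the 41, against 9.09% of all genes, and higher in 3 of the 41, against 11.2%. The 3 were *Mre11a*, *Parp1* and *Ercc5*.

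In the hippocampus 42 members were tested, with *Chek1*, *Brca1* and *Fanca* too low. No member passed an adjusted p of 0.05, which 0.0285% of all 14043 genes tested passed, and the smallest adjusted p of a member was 0.333. At an unadjusted p under 0.05, *Ercc2* was higher in IR and 0 members were lower. This is 2.38% of the members, against 13.9% of all genes tested, 7.06% higher and 6.89% lower. The mean was lower in IR for 26 members and higher for 16, and over all genes tested for 7407 and 6636. The members had a median log2 fold change of -0.03 against -0.00997 over all genes and a range from -0.26 to 0.24. The 95% interval of the change in FPKM + 1 lay within 1.5-fold for 41 of the 42 members, against 90.1% of all genes tested. For members near or under 1 FPKM, such as *Ung*, the added 1 shrinks the change, so this does not bound their change in FPKM. The exception was *Neil1*, a DNA glycosylase for oxidised bases. *Neil1* was at 3.70, 1.44 and 3.00 FPKM in Con hippocampus and at 2.79, 2.34 and 2.00 FPKM in IR, with Con 2 the lowest library and overlapping groups.

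The hippocampus libraries of Con and IR did not overlap for 5 of the 42 members (11.9%), against 19.8% of all genes tested. IR was higher in 4 of the 42, *H2afx*, *Mdc1*, *Ercc2* and *Ercc6*, against 10.5% of all genes. It was lower in 1, *Xrcc6*, against 9.36%. IR 1 was the lowest of the 6 hippocampus libraries for 14 of the 42 members (33.3%) and for 24.8% of all genes. Without Con 2 and IR 1, the libraries with the most choroid plexus RNA, *Ercc2* had a difference of 0.16 against 0.24 with all 6, and an unadjusted limma p of 0.193. In that fit *Neil1* was lower with an unadjusted p of 0.0145 and an adjusted p of 0.855. No other member was under 0.05, unadjusted, where 5.59% of all genes tested were. The median log2 fold change of the members was then -0.00219. Leaving out single libraries moved the count as well. It was 0 higher without Con 1, IR 1, IR 2 or IR 3, 2 lower and 1 higher without Con 2, and 3 higher without Con 3. It was 1 lower without IR 2 and 3 lower without IR 3. The share of all genes tested with an unadjusted p under 0.05, in either direction, moved too. It was 9.13% without Con 1, 9.30% without Con 2 and 26.0% without Con 3. Without IR 1, IR 2 or IR 3 it was 8.35%, 9.79% or 9.55%.

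**Figure D2:**
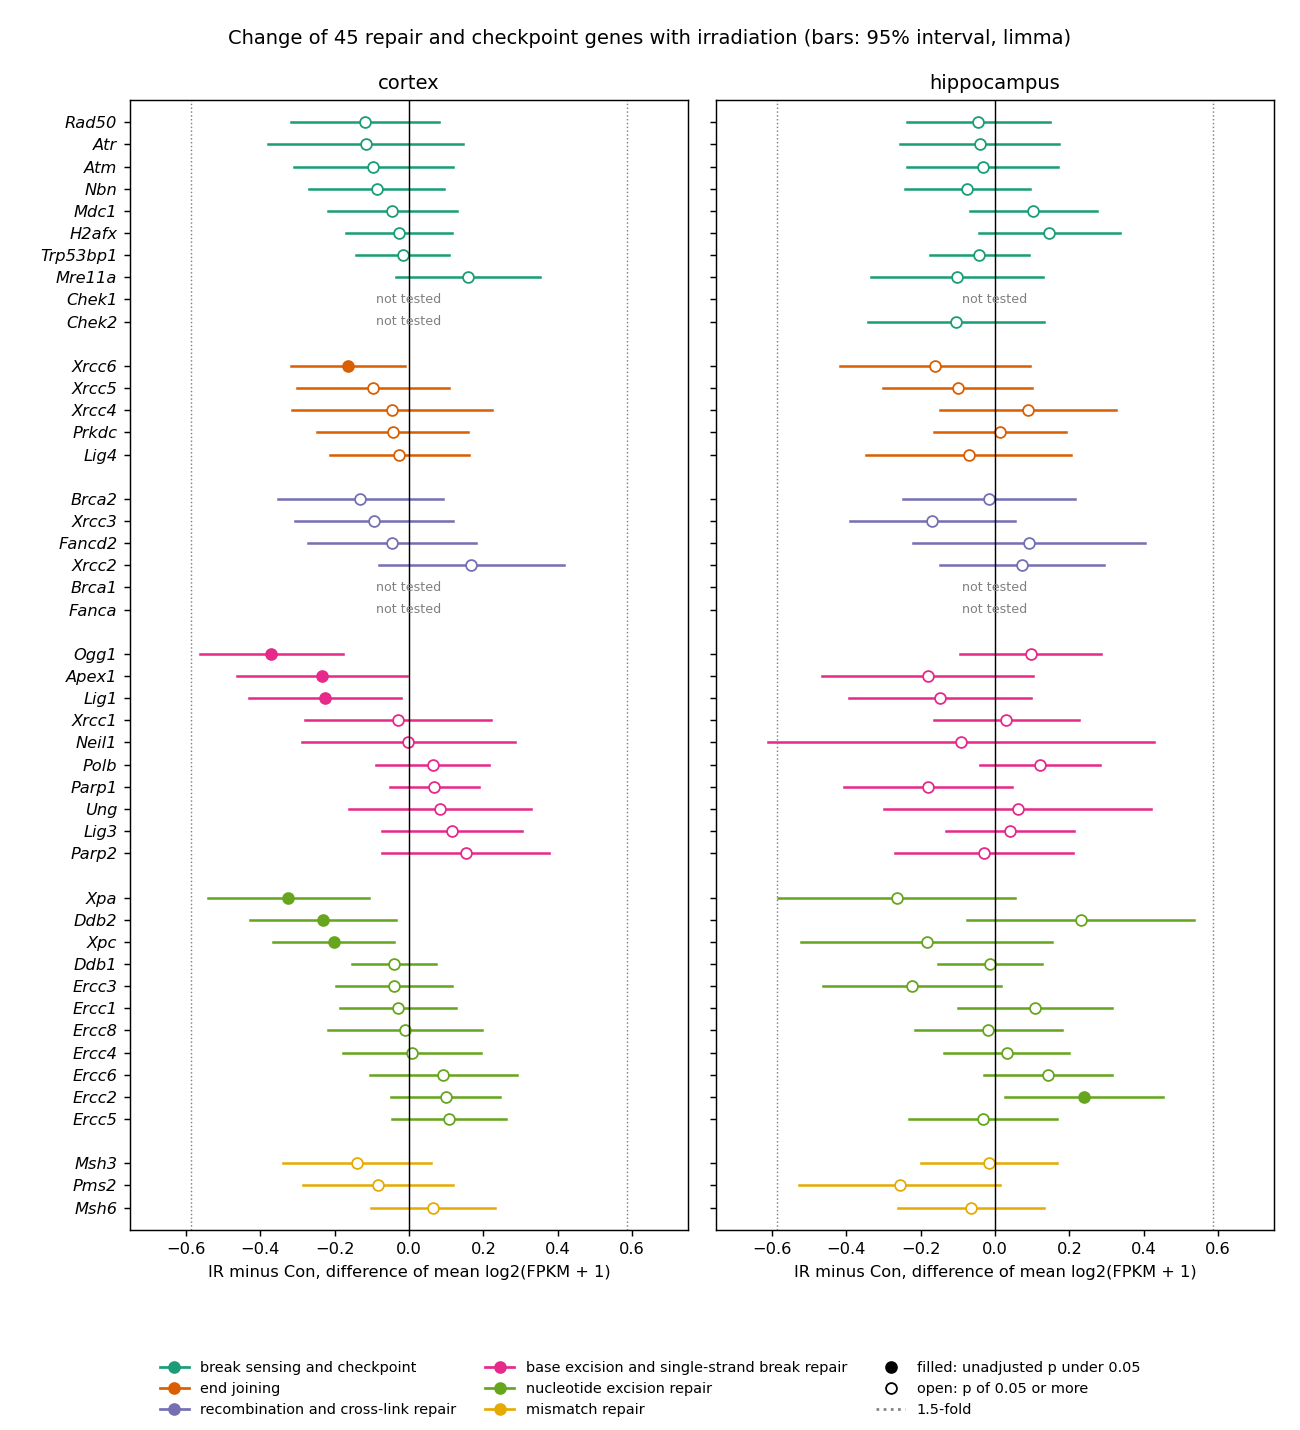
Change of each member with irradiation in the cortex (left) and hippocampus (right), as the IR minus Con difference of the mean log2(FPKM + 1), with 95% intervals from limma and colours by pathway. Filled points have an unadjusted p under 0.05, which holds for 7 members in the cortex, all left of 0, and for *Ercc2* in the hippocampus. Dotted lines mark a 1.5-fold change of FPKM + 1, and the bar of *Neil1* in the hippocampus crosses one.

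Among the 10 genes of break sensing and the checkpoint, none passed an unadjusted p of 0.05 in either tissue. In the cortex 8 were tested, with a median log2 fold change of -0.07, from -0.12 for *Rad50* to 0.16 for *Mre11a*, both subunits of the complex that holds and trims broken ends. *Mre11a* was at 2.55, 2.29 and 2.68 FPKM in Con and at 2.94, 2.77 and 3.03 FPKM in IR. Its IR libraries were all above its Con libraries, with an unadjusted p of 0.0968 and an adjusted p of 0.449. In the hippocampus 9 were tested, with a median of -0.04, from -0.11 for *Chek2* to 0.15 for *H2afx*, the histone that is phosphorylated around breaks. *H2afx* was at 18.4, 22.8 and 21.7 FPKM in Con and at 23.2, 23.4 and 23.0 FPKM in IR. *Mdc1*, which binds that phosphorylated histone, was at 3.65, 3.50 and 3.83 FPKM in Con and at 4.01, 4.01 and 3.98 FPKM in IR. For both, every IR library was above every Con library, with adjusted p-values of 0.442 and 0.537. The kinases *Atm* and *Atr* had log2 fold changes of -0.10 and -0.12 in the cortex and of -0.03 and -0.04 in the hippocampus, with overlapping libraries.

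*Chek2* (chr5:110839979-110874145 in mm10, plus strand) passed the filter only in the hippocampus. Its cortex libraries were at 0.299, 0.298 and 0.108 FPKM in Con and at 0.457, 0.621 and 0.5003 FPKM in IR, so every IR library was above every Con library, at 2.24 times the Con mean. With no filter on low values, its log2 fold change in the cortex was 0.31, with an unadjusted p of 0.00525 and an adjusted p of 0.232. In the hippocampus it was at 1.10, 1.18 and 0.888 FPKM in Con and at 0.845, 1.00 and 0.878 FPKM in IR, with overlapping groups and an adjusted p of 0.646. *Chek1*, the kinase downstream of ATR, stayed between 0.213 and 0.484 FPKM in all 12 libraries.

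The 5 end joining genes were all lower on average in the cortex, with a median log2 fold change of -0.05, from -0.16 for *Xrcc6* to -0.03 for *Lig4*, the ligase that seals the ends. *Xrcc6* (chr15:81987835-82040085, plus strand) encodes Ku70, which with *Xrcc5* caps a broken end. In the cortex it was at 7.44, 7.22 and 7.96 FPKM in Con and at 6.38, 6.87 and 6.62 FPKM in IR, all below Con, with an unadjusted p of 0.0393 and an adjusted p of 0.325. The unadjusted p rose above 0.05 without Con 1 (0.0680), Con 3 (0.123), IR 1 (0.114) or IR 3 (0.0866), when the replicate number was a block (0.0600), and in a single fit over both tissues (0.104). In the hippocampus *Xrcc6* was at 7.54, 7.45 and 7.47 FPKM in Con and at 5.35, 7.15 and 7.44 FPKM in IR. IR 1 made most of that gap, and the adjusted p was 0.516. The other hippocampal values of the pathway ran up to 0.09, for *Xrcc4*. *Prkdc*, the catalytic kinase of end joining, was among the steadiest members there, at 2.59 to 2.65 FPKM in Con and 2.64 to 2.66 FPKM in IR.

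Of the 6 recombination and cross-link genes, 4 were tested in each tissue and none had an unadjusted p under 0.05. In the cortex the median log2 fold change was -0.07, from -0.13 for *Brca2*, which acts in recombination, to 0.17 for *Xrcc2*, which acts in the same pathway. In the hippocampus the median was 0.03, from -0.17 for *Xrcc3*, also of recombination, to 0.09 for *Fancd2*, which is ubiquitinated at cross-links. *Brca1* and *Fanca* were not tested. *Brca1* lay between 0.122 and 0.260 FPKM in all 12 libraries and *Fanca* between 0.192 and 0.574 FPKM, with overlapping Con and IR libraries in each tissue.

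Base excision repair held the member with the smallest p. *Ogg1* encodes the glycosylase that removes 8-oxoguanine, the common oxidised form of guanine, and lies at chr6:113326972-113335068 on the plus strand. In the cortex it was at 4.28, 3.72 and 3.68 FPKM in Con and at 2.92, 2.82 and 2.62 FPKM in IR. Every IR library was below every Con library, and the IR mean was 0.715 times the Con mean. The log2 fold change was -0.37 with a standard error of 0.09, an unadjusted p of 0.00167 and an adjusted p of 0.0997. The unadjusted p stayed under 0.05 under all 14 alternative settings, from 0.000440 to 0.00920, and the adjusted p did not pass under any. In the hippocampus *Ogg1* was at 3.75, 3.63 and 4.15 FPKM in Con and at 4.06, 4.01 and 4.44 FPKM in IR, with overlapping groups, a log2 fold change of 0.10 and an adjusted p of 0.603.

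The 250 bases before the RefSeq start of *Ogg1* are shown because the gene had the smallest p in the cortex among the members tested. They lie at chr6:113326726-113326975 on the plus strand of GRCm38.p6, with CCAAT boxes (CCAAT or its complement) and GC boxes (GGGCGG or its complement) in capitals. The window holds 2 matches of each and none of the E2F motif. The gene was chosen for this after its values were seen.
*Ogg1*: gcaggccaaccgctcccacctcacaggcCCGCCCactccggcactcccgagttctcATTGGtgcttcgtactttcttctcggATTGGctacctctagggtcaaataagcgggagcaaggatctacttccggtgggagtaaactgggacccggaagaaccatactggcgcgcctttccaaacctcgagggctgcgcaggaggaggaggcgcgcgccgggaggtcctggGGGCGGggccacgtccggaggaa

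*Apex1* and *Lig1* were the other base excision genes whose cortical unadjusted p was under 0.05. *Apex1* (chr14:50924968-50927139, plus strand) encodes the endonuclease that cuts the strand at a site whose base has been removed. Cortex libraries held it at 6.27, 5.97 and 6.79 FPKM in Con and at 4.35, 5.55 and 5.93 FPKM in IR. IR 1 was far below, while the highest IR library fell just short of the lowest Con library. Its log2 fold change was -0.23, with an unadjusted p of 0.0451 and an adjusted p of 0.340. Without IR 1 it was -0.12 with an unadjusted p of 0.190, and without Con 1 or Con 3 the unadjusted p was 0.0722 or 0.136. With all libraries of the tissue it was 0.0571 with no filter on low values and 0.0519 without limma's trend and robust prior, and a single fit over both tissues gave 0.0741. In the hippocampus *Apex1* was at 9.58, 7.73 and 8.21 FPKM in Con and at 6.13, 7.48 and 8.66 FPKM in IR, with overlapping groups and an adjusted p of 0.513. Of the exonic bases of *Apex1*, 70.8% also lie in exons of *Pip4p1* on the other strand, listed in the files as *Tmem55b*. The cortical log2 fold change of *Tmem55b* was -0.11, with an unadjusted p of 0.0585. The library kit keeps strand, but whether the counting used it is not given in the sources used here, and without it reads from the shared bases cannot be told apart.

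*Lig1* lies at chr7:13277283-13311433 on the plus strand. Cortex libraries held it at 4.96, 5.25 and 4.36 FPKM in Con and at 3.65, 4.41 and 3.97 FPKM in IR, so that IR 2 reached just above the lowest Con library. This gave a log2 fold change of -0.23, with an unadjusted p of 0.0337 and an adjusted p of 0.309. The unadjusted p was 0.0809 without Con 1, 0.105 without Con 2, 0.121 without IR 1 and 0.0736 without IR 3. In the hippocampus *Lig1* was at 3.18, 2.72 and 2.66 FPKM in Con and at 2.32, 2.24 and 2.90 FPKM in IR, which overlapped, with an adjusted p of 0.537. *Lig1* acts in replication, and the summed level of 15 genes of proliferating cells was 13.5 to 15.3 FPKM in Con cortex and 11.95 to 13.9 FPKM in IR cortex. Of the 9 of these genes tested there, 2 were lower in IR at an unadjusted p under 0.05 and 0 were higher, with a median log2 fold change of -0.00232. Of all genes tested in the cortex 5.94% were lower and 8.16% higher. In the hippocampus 8 were tested, with 1 higher and 1 lower, a median of -0.136 and overlapping sums. There 7.06% of all genes tested were higher and 6.89% lower. Their part in the result was not tested.

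*Parp1* (chr1:180568924-180601254, plus strand) was at 19.5, 20.2 and 19.6 FPKM in Con cortex and at 21.5, 20.3 and 20.6 FPKM in IR cortex. The IR libraries were all above Con by a narrow margin, with an adjusted p of 0.617. In the hippocampus it was at 40.7, 37.5 and 36.6 FPKM in Con and at 29.1, 34.5 and 37.8 FPKM in IR, where IR 1 was lowest and IR 3 lay within the Con range, with an adjusted p of 0.428. Over the whole pathway all 10 genes were tested in both tissues. In the cortex the median log2 fold change was 0.03 and the highest value 0.15, for *Parp2*, which shares the task of *Parp1*. In the hippocampus the median was -0.000272, from -0.18 for *Apex1* to 0.12 for *Polb*, the polymerase that fills the single-base gap. *Ung*, the uracil glycosylase, was the lowest of the pathway, at 0.314 to 1.33 FPKM over the 12 libraries. *Xrcc1* and *Lig3*, the scaffold and the ligase of single-strand break repair, had overlapping groups in both tissues.

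All 11 genes of nucleotide excision repair were tested in both tissues, and 3 were lower in IR cortex at an unadjusted p under 0.05, where 5.94% of all genes tested were. These were *Xpc*, *Ddb2* and *Xpa*, of which the first and the second recognise the lesion and *Xpa* checks it. The median of the pathway in the cortex was -0.03, from -0.32 for *Xpa* to 0.11 for *Ercc5*, the nuclease that cuts on the 3′ side. The nuclease *Ercc4* with its partner *Ercc1*, which cuts on the 5′ side, had log2 fold changes of 0.01 and -0.03 in the cortex. The genes of transcription-coupled repair, *Ercc6* and *Ercc8*, had 0.09 and -0.01 there.

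*Xpa* lies at chr4:46155347-46196311 on the minus strand. In the cortex it was at 7.17, 7.75 and 6.97 FPKM in Con and at 6.12, 4.71 and 6.14 FPKM in IR. Every IR library was below every Con library, and IR 2 was lowest. The log2 fold change was -0.32 with a standard error of 0.10, an unadjusted p of 0.00751 and an adjusted p of 0.187. The unadjusted p ran from 0.00625 to 0.0272 over the 14 alternatives. In the hippocampus *Xpa* was at 9.29, 8.58 and 8.02 FPKM in Con and at 6.23, 9.09 and 6.05 FPKM in IR. IR 1 and IR 3 were below Con and IR 2 within it, with a log2 fold change of -0.26 and an adjusted p of 0.417. Without IR 2 the hippocampal difference was -0.43, with an unadjusted p of 0.00225 and an adjusted p of 0.425. This leaves out the IR library that lay within Con, which widens the difference by construction. In that fit 9.79% of all genes tested had an unadjusted p under 0.05.

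The 250 bases before the start of *Xpa* are shown because it was, beside *Ogg1*, the member whose cortical p stayed under 0.05, unadjusted, in every alternative. They lie at chr4:46196312-46196561 and are read on the minus strand of GRCm38.p6. They hold 1 CCAAT box, in capitals, no GC box and no E2F motif.
*Xpa*: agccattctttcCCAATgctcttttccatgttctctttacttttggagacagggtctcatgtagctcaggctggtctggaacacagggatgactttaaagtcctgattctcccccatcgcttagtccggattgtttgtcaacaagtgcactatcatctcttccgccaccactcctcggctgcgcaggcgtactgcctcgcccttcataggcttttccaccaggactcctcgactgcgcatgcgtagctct

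*Xpc* lies at chr6:91489305-91515888 on the minus strand. Its cortex libraries were at 6.83, 6.08 and 6.20 FPKM in Con and at 5.22, 5.47 and 5.50 FPKM in IR, all below Con. This gave a log2 fold change of -0.20, with an unadjusted p of 0.0191 and an adjusted p of 0.259, and the unadjusted p was 0.0845 without Con 1, 0.0602 without IR 1 and 0.116 in a single fit over all 12 libraries. In the hippocampus *Xpc* was at 7.83, 5.67 and 6.07 FPKM in Con and at 4.46, 6.58 and 5.87 FPKM in IR. The groups overlapped there, with the highest library Con 1 and the lowest IR 1, a log2 fold change of -0.18 and an adjusted p of 0.578.

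*Ddb2* lies at chr2:91211572-91236982 on the minus strand. In the cortex it was at 9.77, 8.44 and 7.82 FPKM in Con and at 6.65, 7.68 and 7.36 FPKM in IR, all below Con. The log2 fold change was -0.23, with an unadjusted p of 0.0255 and an adjusted p of 0.283, and the unadjusted p was 0.0986 without IR 1 and 0.0738 in the single fit over all libraries. Without Con 1 the difference was -0.15, with an unadjusted p of 0.112. In the hippocampus *Ddb2* was at 4.02, 5.19 and 6.40 FPKM in Con and at 6.36, 6.08 and 6.12 FPKM in IR. There the Con libraries spread widely and the IR libraries lay near the highest of them, with a log2 fold change of 0.23 and an adjusted p of 0.449. Without Con 3 the hippocampal difference was 0.37, with an unadjusted p of 0.00924 and an adjusted p of 0.0811. This leaves out the highest Con library, which widens the difference by construction. In that fit 26.0% of all genes tested had an unadjusted p under 0.05, and 880 passed adjustment against 4 with all libraries. Of the exonic bases of *Ddb2*, 26.7% also lie in exons of *Acp2* on the other strand, whose log2 fold change was -0.15 in the cortex (unadjusted p = 0.0316) and 0.17 in the hippocampus (unadjusted p = 0.0322). Without strand in the counting, reads from these shared bases cannot be assigned to either gene.

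*Ercc2* (chr7:19382010-19395694, plus strand) encodes XPD, a helicase of TFIIH that opens DNA around the lesion. In the hippocampus it was at 7.06, 6.55 and 8.48 FPKM in Con and at 8.90, 8.72 and 8.86 FPKM in IR. All IR libraries were above Con, with Con 3 close to them. For *Ercc2* the log2 fold change was 0.24, with an unadjusted p of 0.0319 and an adjusted p of 0.333. Without Con 3 it was 0.33 with an adjusted p of 0.0434, in a fit where 880 genes passed against 4 with all libraries. Without any other single library the unadjusted p was between 0.0650 and 0.110. In the cortex *Ercc2* was at 8.87, 8.24 and 8.09 FPKM in Con and at 8.72, 9.21 and 9.25 FPKM in IR, which overlapped. Its exons share 16.4% of their bases with *Klc3* and 18.1% with the noncoding *Gm26852*, both on the other strand. In the hippocampus the pathway had a median of -0.01, and *Ercc3*, the other helicase of TFIIH, had -0.22 on the log2 scale (adjusted p = 0.378).

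**Figure D3:**
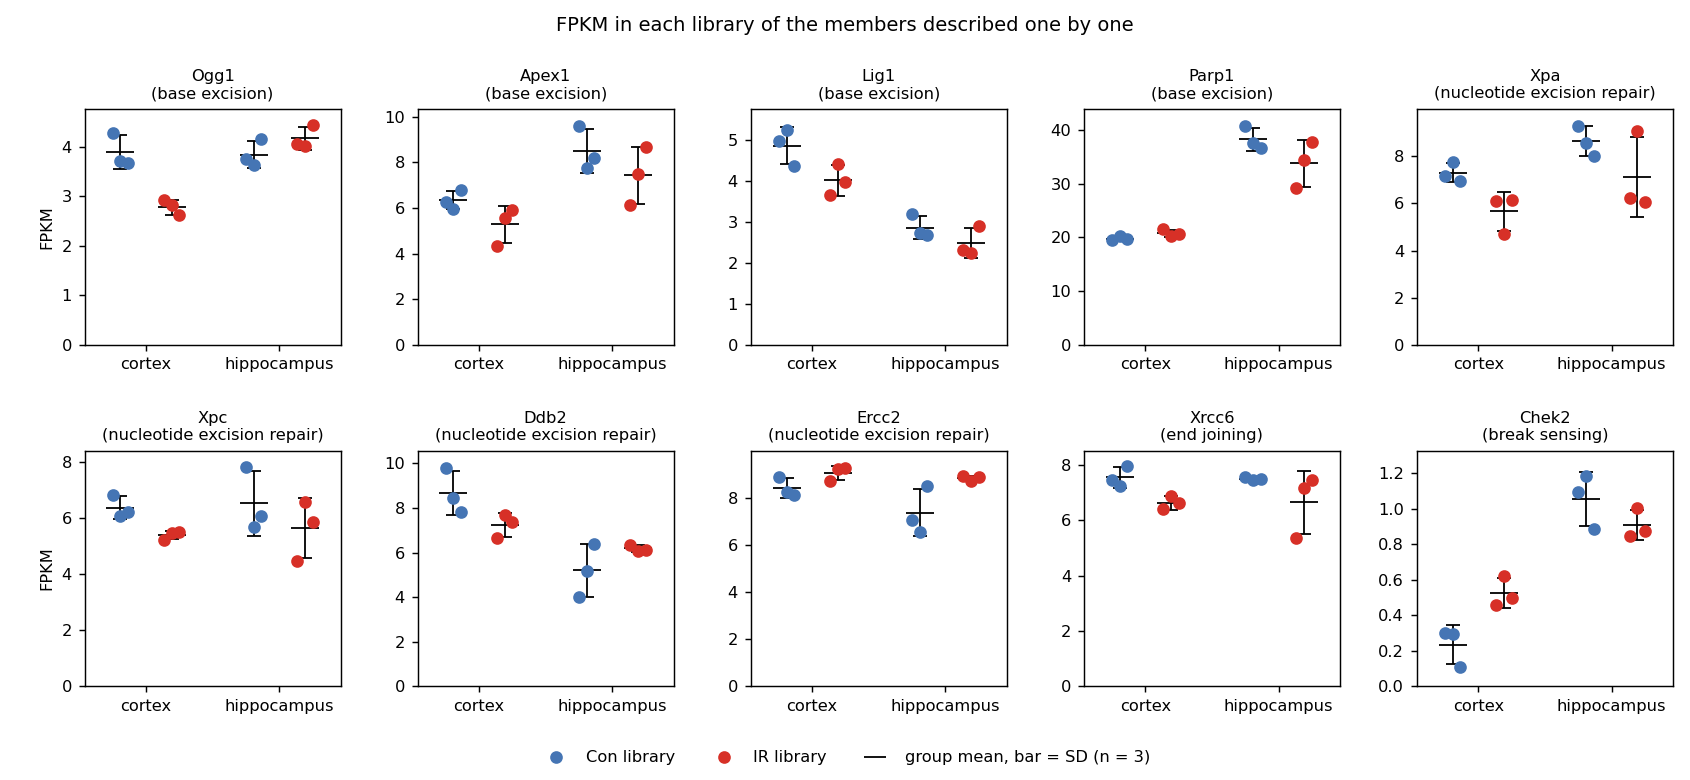
FPKM of 10 members in each library (points, blue for Con and red for IR) with the group mean and SD, for the cortex and the hippocampus. For *Ogg1*, *Apex1*, *Xpa*, *Xpc*, *Ddb2* and *Xrcc6* every IR cortex library lies below the Con cortex libraries, while in the hippocampus this holds for *Xrcc6* only, and *Ercc2* lies above.

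The 3 mismatch repair genes had overlapping libraries in both tissues. In the cortex the log2 fold change ran from -0.14 for *Msh3* to 0.06 for *Msh6*, which both take part in the recognition of mispairs. In the hippocampus it ran from -0.26 for *Pms2*, the nicking subunit, to -0.02 for *Msh3*. *Pms2* was at 5.09, 5.07 and 5.70 FPKM in Con hippocampus and at 3.66, 4.004 and 5.23 FPKM in IR. Its IR 1 and IR 2 were below Con and IR 3 was not, with an unadjusted p of 0.0599 and an adjusted p of 0.374. Without IR 3 its log2 fold change was -0.38, with an unadjusted p of 0.00598 and an adjusted p of 0.476. This leaves out the IR library that lay within Con, which widens the difference by construction. In that fit 9.55% of all genes tested had an unadjusted p under 0.05.

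**Figure D4:**
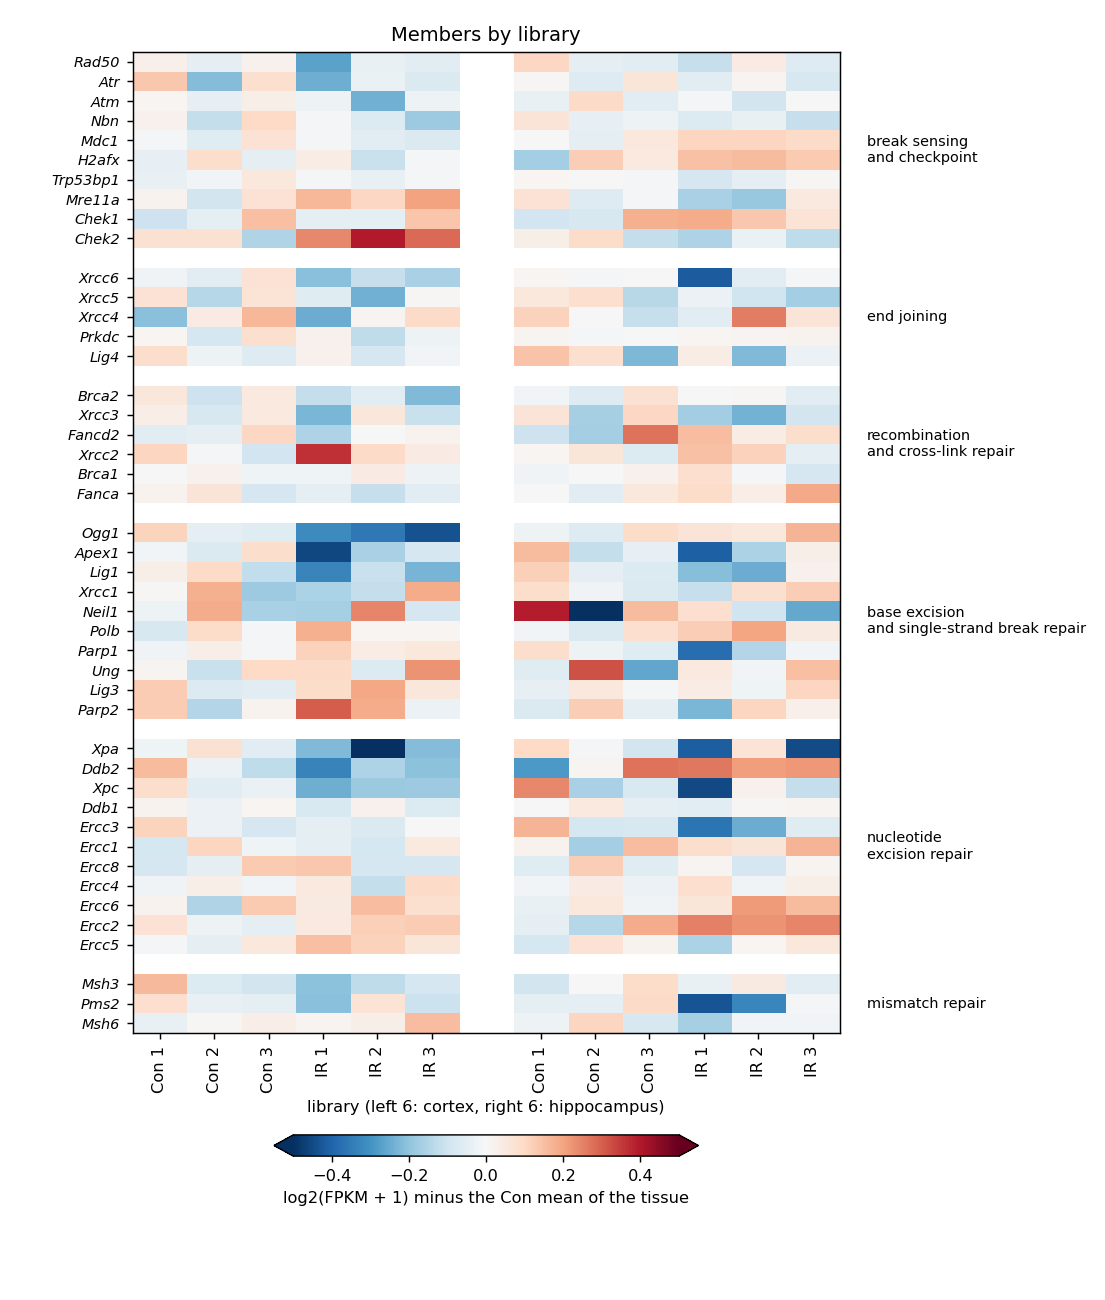
Each member in each library, as log2(FPKM + 1) minus the Con mean of the tissue, with red above and blue below (colours end at 0.5 in each direction) and members grouped by pathway. *Ogg1*, *Xpa*, *Xpc* and *Ddb2* are blue in all 3 IR cortex libraries. In the hippocampus IR 1 holds many of the deepest blue cells, and it is the lowest library for 14 of the 42 members tested.

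The difference of the irradiation effect between the tissues was tested over all 12 libraries. For 42 members tested, 4 had an unadjusted p under 0.05 (9.52%), against 10.4% of all 14459 genes, and 0 passed an adjusted p of 0.05, against 0.083%. The 4 were *Ogg1*, *Ddb2*, *Chek2* and *Parp1*. For *Ogg1* the hippocampal minus the cortical log2 fold change was 0.47 (adjusted p = 0.201), and for *Ddb2* it was 0.46 (adjusted p = 0.394). Without hippocampus Con 3 these adjusted p-values were 0.0376 and 0.0425, in a fit where 487 genes passed against 12 with all libraries. For *Chek2* the difference was -0.41 (adjusted p = 0.360) and for *Parp1* -0.25 (adjusted p = 0.472). *Chek2* did not pass the filter in the cortex and entered this fit through the hippocampus, where its level is higher, and it drops out when at least 1 FPKM is required in every library, which leaves 3. For *Xpa*, *Xpc*, *Apex1* and *Xrcc6*, the difference between the tissues was at most 0.06 in size, with standard errors from 0.13 to 0.18 and unadjusted p-values from 0.743 to 0.988. Of the 41 members tested in both tissues, 20 were lower on average in IR in both, 7 were higher in both, and 0 had an unadjusted p under 0.05 in both. The matching shares over all genes were not counted, so these numbers show no trait of the members.

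A wider list of 108 other repair genes was read alongside, of which 105 are listed. In the cortex 90 were tested, with 5 higher and 4 lower at an unadjusted p under 0.05, 9 in all where 14.1% of all genes tested were past it, and a median log2 fold change of -0.03. In the hippocampus 89 were tested, with 4 higher and 8 lower, 12 in all where 13.9% of all genes tested were past it, and a median of -0.03. No gene of the list passed an adjusted p of 0.05 in either tissue, with smallest values of 0.216 and 0.230. Single genes of this list are named here after their values were seen. *Tdp1*, which frees topoisomerase I from DNA ends, was higher in IR in both tissues without overlap, at 5.81 ± 0.364 against 6.90 ± 0.534 FPKM in the cortex and 6.08 ± 0.290 against 7.21 ± 0.0275 FPKM in the hippocampus (SD, n = 3). In each tissue this was a log2 fold change of 0.21, with adjusted p-values of 0.274 and 0.288. *Rad9a*, part of the checkpoint clamp, had 3.66 ± 1.38 FPKM in Con hippocampus and 5.68 ± 0.763 FPKM in IR, with an adjusted p of 0.300. *Tipin*, a fork protection protein, had 8.88 ± 0.478 and 6.47 ± 0.748 FPKM there, without overlap and with an adjusted p of 0.230. *Fance*, of the Fanconi anemia core complex, had 8.02 ± 0.337 FPKM in Con cortex and 6.62 ± 0.656 FPKM in IR, without overlap and with an adjusted p of 0.216.

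Promoters of the members were read from RefSeq (GRCm38.p6) as the 250 bases before each start. An entry was held for 35 of the 45 members, 38 promoters in all. This included 5 of the 7 members that were lower in the cortex at an unadjusted p under 0.05. The E2F motif, which cell cycle genes often carry, was searched as TTTCGCGC, TTTGGCGC or TTTCCCGC on both strands. It was found in 5 of the 38 (13.2%), those of *Brca2*, *Chek2*, *Mdc1*, *Msh3* and *Xrcc6*, against 1.53% of all 32851 promoters in the table. The CCAAT box was found in 18 (47.4%), against 33.8% of all. The GC box GGGCGG was found in 23 (60.5%), against 32.7% of all, and these motifs can overlap each other. These are matches of letters, not sites of binding.

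Lists of cell type markers were counted in the same libraries, at an unadjusted p under 0.05. By that measure 8.16% of all genes tested were higher and 5.94% lower in IR cortex, and 7.06% higher and 6.89% lower in IR hippocampus. Of 12 microglia genes, 5 were lower in IR cortex and 8 in IR hippocampus, and 1 in each tissue passed the adjusted threshold. Their summed level was 182 to 193 FPKM in Con and 145 to 185 FPKM in IR in the cortex, and 175 to 210 and 141 to 156 FPKM in the hippocampus. Of 8 endothelial genes, 4 were higher in IR cortex, with sums of 80.1 to 94.1 FPKM in Con and 97.5 to 112 FPKM in IR, and 2 in IR hippocampus, with sums of 70.5 to 78.5 and 86.7 to 89.6 FPKM. Of 8 oligodendrocyte genes, 4 were higher in IR cortex, with sums of 1100 to 1360 FPKM in Con and 1363 to 1652 FPKM in IR, whereas in the hippocampus 0 were higher and 2 lower, with overlapping sums of 1126 to 1375 and 1044 to 1325 FPKM. Of 7 genes of oligodendrocyte precursors, 2 were higher and 0 lower in IR cortex, with overlapping sums of 85.4 to 95.6 and 92.4 to 101.4 FPKM. In IR hippocampus 0 of them were higher and 1 was lower, with sums of 103.3 to 108.4 FPKM in Con and 96.3 to 103.02 FPKM in IR, which did not overlap by a narrow margin. Of 8 astrocyte genes, 1 was higher and 0 lower in IR cortex, a share near that of all genes, with overlapping sums of 770.04 to 862 and 804 to 859 FPKM, and 0 were higher and 3 lower in IR hippocampus, with overlapping sums of 893 to 1020 and 874 to 941 FPKM. None of 8 neuron genes was past it in either tissue, nor was any gene tested for choroid plexus, blood, T cells or cortical neurons. A neuroblast gene was lower in IR cortex, and a meningeal fibroblast gene and a hippocampal neuron gene were higher in IR hippocampus. The part of these cells in the differences of the members was not tested, and in bulk tissue fewer cells of a type and less RNA per cell cannot be told apart.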

How the data were processed

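RNA of the cortex and the hippocampus was sequenced in 12 libraries (3 Con and 3 IR per tissue). The authors aligned the reads with TopHat to mm10, estimated FPKM with Cufflinks, applied a geometric normalization and deposited these FPKM by gene symbol. The annotation behind them is not given in the sources used here. The study's methods name an RNeasy kit and poly(A) selection, the labels Trizol and total RNA. Groups came from the labels alone.

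Genes reaching 0.5 FPKM in 3 or more of a tissue's 6 libraries were fitted on log2(FPKM + 1) with limma 3.58.1 in R 4.3.3 (trend and robust prior), with a Benjamini-Hochberg adjustment over all genes tested. The interaction was fitted over 12 libraries. The steps were tested on simulated data. Coordinates and exon overlaps came from GENCODE M21 (mm10) and promoters from RefSeq.

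The members, lists and tests were chosen with earlier results of these data known. Named one by one were members with an unadjusted p under 0.05 in a tissue or the interaction, *Ddb2* and *Xpc*, and per pathway the highest and lowest log2 fold change. Other genes were named after their values were seen. Exact permutation of 3 against 3 libraries gives no p below 0.1, so it was not used for single genes. Alternatives were other filters, pseudocounts, scalings, priors and blocks, a single fit, and leaving out libraries. Figures were drawn with matplotlib 3.10.9.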

Additional observations from a re-analysis of the deposited data

Results flagged for a closer look

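The effect of irradiation differed between the tissues at an unadjusted p under 0.05 for 4 members, and for none of them after adjustment with limma. For *Ogg1* the hippocampal minus the cortical log2 fold change was 0.47 (unadjusted p = 0.00114, adjusted p = 0.201), with values of -0.37 in the cortex and 0.10 in the hippocampus. For *Ddb2* it was 0.46 (unadjusted p = 0.0168, adjusted p = 0.394), with -0.23 and 0.23, and the overlapping gene *Acp2* had -0.15 and 0.17. For *Chek2* it was -0.41 (unadjusted p = 0.0108, adjusted p = 0.360), with 0.31 in the cortex, where it was under 1 FPKM in all libraries, and -0.11 in the hippocampus. For *Parp1* it was -0.25 (unadjusted p = 0.0471, adjusted p = 0.472), with 0.07 and -0.18, and without hippocampus IR 1 it was -0.15 (unadjusted p = 0.129). The unadjusted p of *Ogg1* and *Ddb2* stayed under 0.05 under all 17 alternatives, and that of *Parp1* under 6 of them. That of *Chek2* did so under the 16 in which it could be tested, but it rests on cortex values below the filter for that tissue, and with at least 1 FPKM required in every library the gene was not tested. The share of members with an unadjusted p under 0.05, 9.52%, was near the 10.4% of all genes tested.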

How the results depend on the processing

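No member with an unadjusted p under 0.05 in a tissue turned in direction there under an alternative. This was largely fixed in advance and is no measure of robustness. For all of them but *Lig1* the Con and IR libraries did not overlap, so leaving out a library cannot turn the direction. Other filters, priors and blocks left their log2 fold changes as they were. Of all members tested, 11 of 41 in the cortex and 14 of 42 in the hippocampus turned under at least 1, such as *Neil1* in the hippocampus, from -0.09 to 0.10 without Con 1, and these had changes of at most 0.09 in size and unadjusted p-values of 0.477 or more. In the cortex the members lower in IR at an unadjusted p under 0.05 numbered 7, and 3 in a single fit over all 12 libraries (*Ogg1*, *Xpa* and *Lig1*). Without each replicate in turn they numbered 2 to 7. Of all genes, in either direction, 14.1% were past that p in the main fit, 11.9% in the single fit and 8.69% to 15.1% without each replicate. Members higher in IR numbered 0, and 0 to 1 without each replicate. There was 1 without the filter (*Chek2*), where 11.8% of all genes were past it in either direction. Without trend and robust prior there was also 1 (*Mre11a*), where 13.7% of all genes were. In the hippocampus the members lower numbered 0, and 1 with quantile normalization, 3 in the single fit and 0 to 3 without each replicate. The number was 1 without the 2 libraries with most choroid plexus RNA, an alternative chosen after seeing the data. Of all genes, in either direction, 13.9% were past it in the main fit, 14.6% with quantile normalization and 19.2% in the single fit. This share was 8.35% to 26.0% without each replicate, highest without Con 3, and 5.59% without the 2 libraries. Members higher numbered 1, and 0 without those 2 libraries, and 0 to 3 without each replicate. The members passing the adjusted threshold in the hippocampus numbered 0 to 1 without each replicate, the 1 being *Ercc2* without Con 3, a setting in which 880 genes passed against 4 with all libraries. The median log2 fold change in the hippocampus ran from -0.0430 to -0.00354 without each replicate and was -0.00219 without the 2 libraries. The interaction had 0 to 2 members past the adjusted threshold without each replicate, the 2 being *Ogg1* and *Ddb2* without hippocampus Con 3. Of the other repair genes, 2 to 7 were lower and 0 to 6 higher in the cortex without each replicate. In the hippocampus 4 to 14 were lower, 2 to 5 higher and 0 to 4 past the adjusted threshold. The 14 and the 4 came without Con 3, where 26.0% of all genes had an unadjusted p under 0.05 and 880 passed adjustment. Without the 2 libraries 2 were lower, in the fit where 5.59% of all genes had an unadjusted p under 0.05. The causes of these shifts were not tested.

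Whether equal replicate numbers pair the samples is not given in the sources used here. Deviations of same-numbered Con and IR libraries correlated at 0.108, -0.109 and -0.0401 in the cortex and at -0.393, -0.154 and -0.0851 in the hippocampus. Cortex Con 1 and IR 1 correlated best with each other, and no other same-numbered libraries did. With no reference for such values, they cannot decide whether equal numbers share a batch. With the replicate block, 6 cortex members were lower in IR at an unadjusted p under 0.05. Among hippocampus members 1 was lower (*Pms2*) and 1 higher (*Ercc2*). Under this block 13.3% of all genes tested for the cortex were past that p in either direction, and 10.1% of those tested for the hippocampus. The interaction then had 3 members with an unadjusted p under 0.05, and no adjusted call was gained in either tissue. Depth in reads is unknown, which limits what can be said of members under 1 FPKM.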
